A study of Mus musculus with 13 samples.

Results

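The circadian clock genes Arntl, Clock, Per1, Per2, Per3, Cry1, Cry2, Nr1d1, Nr1d2 and Dbp were followed through the RNA of Neuro2a cells that had survived a failed cryostorage. They are 10 of the 34857 genes in the deposited tables, chosen by name, and all 10 were matched through their Ensembl identifiers. Neuro2a is a mouse neuroblastoma line with neuron-like properties. All vials were frozen in 10% DMSO, a cryoprotectant, and thawed at 37 °C. The experimental vials first lost their liquid nitrogen over 10 h in a dewar kept at 4 °C, were held there for another 24 h and were frozen again at -80 °C for 72 h. Control vials stayed in normal cryostorage until plating. Poly(A) RNA was sequenced at passage 1, early in recovery, from 3 control and 4 experimental libraries, and at passage 6, when the cells looked normal, from 3 of each. The labels do not state whether replicates are separate vials or flasks, so p-values measure only the spread between these libraries, which may be technical. They also give no hour of harvest and no time since the last change of medium.

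The clock is a transcriptional feedback loop that runs in most mammalian cells, cultured lines included. BMAL1, the product of Arntl, pairs with CLOCK, binds E-boxes and activates the Per, Cry, Nr1d and Dbp genes. PER and CRY proteins then enter the nucleus and inhibit BMAL1 and CLOCK, while the nuclear receptors REV-ERB alpha and beta, encoded by Nr1d1 and Nr1d2, repress Arntl through an element called RORE. DBP drives further genes through D-boxes, and Per1 and Per2 are also induced by cyclic AMP, glucocorticoids and serum, which can set the clocks of cultured cells in step.

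Matches to motifs of the clock loop near the starts of these genes are shown first. They are matches of letters, and binding or use was not tested. RefSeq promoter windows of GRCm38, 250 bases before to 50 after an annotated start, were held for 9 of the 10 genes (all but Per2), in 13 windows. In the windows of Nr1d1, Cry2 and the second Per1 start, the bases after the start matched no GENCODE transcript of the gene. Matches on either strand were sought to the E-box CACGTG, the E′-box CACGTT, the D-boxes TTATGTAA and TTACGTAA, the first bases TGACG of the cyclic AMP response element, and the RORE consensus. In the sequences below, capitals mark the match named for each.
Per1, first start, E-box (chr11:69098699-69098948, plus strand): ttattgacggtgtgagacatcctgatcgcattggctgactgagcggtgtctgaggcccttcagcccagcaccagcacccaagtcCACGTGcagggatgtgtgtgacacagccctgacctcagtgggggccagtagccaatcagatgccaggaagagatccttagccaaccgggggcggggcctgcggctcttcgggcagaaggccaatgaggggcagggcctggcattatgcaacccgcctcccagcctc
Per1, second start, cyclic AMP response element half-site (chr11:69100002-69100061, plus strand): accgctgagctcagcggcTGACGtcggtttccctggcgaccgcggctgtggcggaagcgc
Nr1d1, E′-box read on the other strand (chr11:98775378-98775437, minus strand): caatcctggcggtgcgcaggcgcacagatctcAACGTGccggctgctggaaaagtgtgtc
Cry1, E′-box and E-box (chr10:85185085-85185144, minus strand): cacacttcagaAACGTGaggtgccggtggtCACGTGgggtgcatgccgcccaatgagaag
Per3, a pair of D-boxes (chr4:151044806-151044885, minus strand): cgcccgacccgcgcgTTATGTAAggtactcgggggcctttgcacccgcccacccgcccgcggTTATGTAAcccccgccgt
Arntl, second start, RORE (chr7:113207531-113207556, plus strand): aggcagAAAGTAGGTCAgggacggag

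Among all 32851 windows of the same length, 7.15% held the E-box, 4.68% the E′-box, 1.06% a D-box, 20.81% the TGACG half-site and 0.38% the RORE. The Per1 E-box began 166 bases before the first start. TGACG matches lay 246 bases before the first and 132 before the second Per1 start, 8 before that of Cry1 and 209 before that of Cry2. Cry1 had its E-box 60 bases and its E′-box 79 bases before the start, and Nr1d1 had an E′-box 28 bases before it. Cry2 held an E′-box at 166 bases. Arntl was the only member with a RORE, which lay after its second start. The 3 windows of Clock, the first window of Arntl and those of Nr1d2 and Dbp held none of the 5 motifs, which says only that these letters are absent from these windows.

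**Figure D1:**
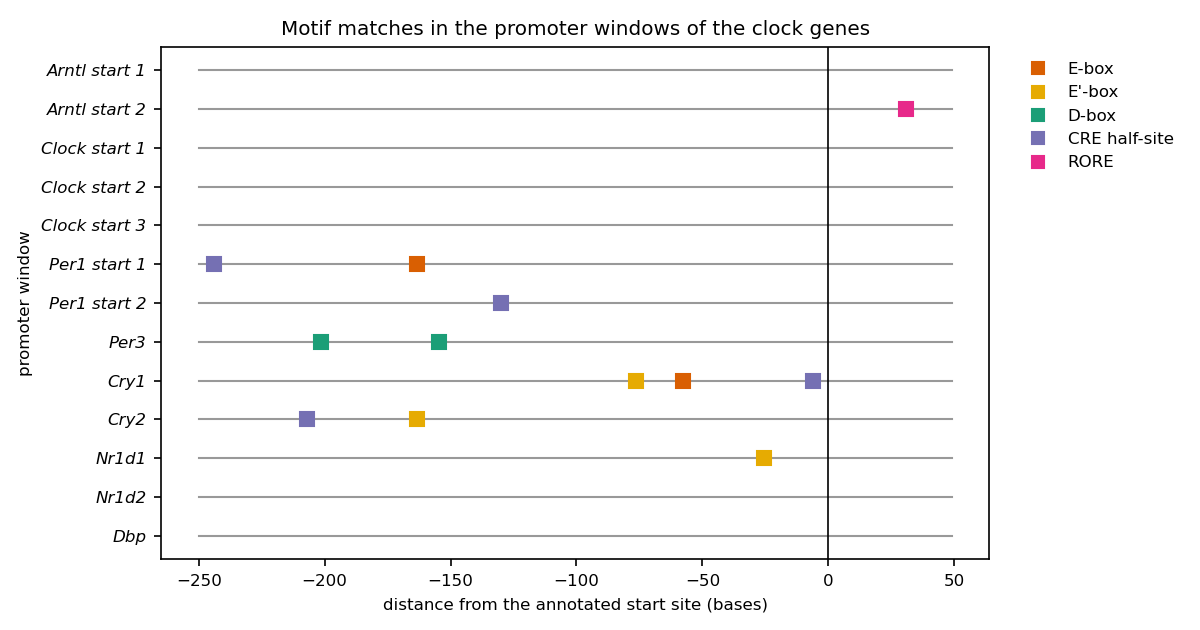
Positions of motif matches (coloured squares) in the 13 promoter windows of 9 clock genes, as distance in bases from the annotated start site (vertical line). Per3 alone carries 2 D-boxes and Arntl alone a RORE, while 6 windows carry no match.

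Markers of the labelled cell type were present, with 2 exceptions. The 13 neuroblastoma markers summed to 522 to 1051 FPKM in each of the 13 libraries, a unit that counts fragments relative to transcript length and to a library's mapped total, but the neurofilament genes Nefl and Nefm reached 1 FPKM only in passage 6 experimental libraries 2 and 3. Those same libraries carried transcripts of other tissues. Their 10 liver markers summed to 131 and 107 FPKM and their 10 brain and myelin markers to 61.4 and 47.6 FPKM, where no other library passed 0.703 and 14 FPKM. Colon epithelium markers, 20 in all, separated the groups in both passages, at 247 to 556 FPKM in passage 1 controls and 14 to 230 FPKM in experimental libraries, and at 136 to 302 and 11.1 to 127 FPKM at passage 6. The neuroblastoma sums also did, at 584 to 605 and 522 to 560 FPKM at passage 1 and at 892 to 938 and 951 to 1051 FPKM at passage 6. Single markers went both ways. At passage 1 Chgb, the most abundant, was at 231 to 245 FPKM in controls and 132 to 163 FPKM in experimental libraries. Chga was higher there, at 69.5 to 75.1 and 81.5 to 88.6 FPKM, as was Isl1, at 3.24 to 3.48 and 5.96 to 7.85 FPKM. At passage 6 Chga was again higher, at 160 to 168 and 190 to 215 FPKM, and Dbh lower, at 7.89 to 8.59 and 3.67 to 5.26 FPKM. The part of these marker levels in the clock results was not tested. Cartilage markers, 11 in all, summed to 7.21 and 8.68 FPKM in passage 1 control 1 and experimental library 4, against 30.7 to 48 FPKM in the other passage 1 libraries. At passage 6 the cartilage sums separated the groups, at 34.4 to 57.9 FPKM in controls and 17.9 to 20.2 FPKM in experimental libraries. Col2a1, the collagen gene that defines cartilage, was at 11.8 to 24.9 and 0.179 to 0.325 FPKM there. Not every marker of the list went this way. Matn3 was at 5.44 to 6.8 FPKM in every passage 1 library. At passage 6 it overlapped, at 11.3 to 12 FPKM in controls and 11.9 to 14.3 FPKM in experimental libraries, and so made up much of the low sums. There the cartilage transcripts and the treatment cannot be told apart. For the tested members, passage 6 changes are given also without experimental libraries 2 and 3. Their passage 1 changes are given also for the libraries rich in cartilage transcripts alone. In bulk RNA, fewer cells that express a gene and less RNA per cell cannot be told apart.

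All 10 clock genes were detected in every library, at low to moderate levels. In passage 1 controls the REV-ERB genes led, with Nr1d2 at 17.4 ± 0.627 FPKM (SD, n = 3) and Nr1d1 at 12 ± 0.482 FPKM. The repressor genes Cry1 and Cry2 followed at 6.8 ± 0.346 and 5.58 ± 0.0693 FPKM, then the activator gene Arntl at 4.11 ± 0.153 FPKM. Per1, at 3.55 ± 0.156 FPKM, and Clock, at 3.5 ± 0.0883 FPKM, overlapped in their ranges. The output gene Dbp, at 2.55 ± 0.338 FPKM, and Per2, at 2.19 ± 0.142 FPKM, also overlapped, and Per3 was lowest at 1.07 ± 0.0709 FPKM. By its mean over all 7 passage 1 libraries, Nr1d2 lay at the 74.7th percentile of the 12469 genes tested there, Cry1 at the 47.9th and Dbp at the 19th. The order changed in passage 6 controls mainly through Cry1, which was at 3.43 ± 0.46 FPKM there (SD, n = 3), overlapping Arntl and Per2. The tables of the passages were deposited separately and their relative scaling is not stated, so levels are not tested across them.

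**Figure D2:**
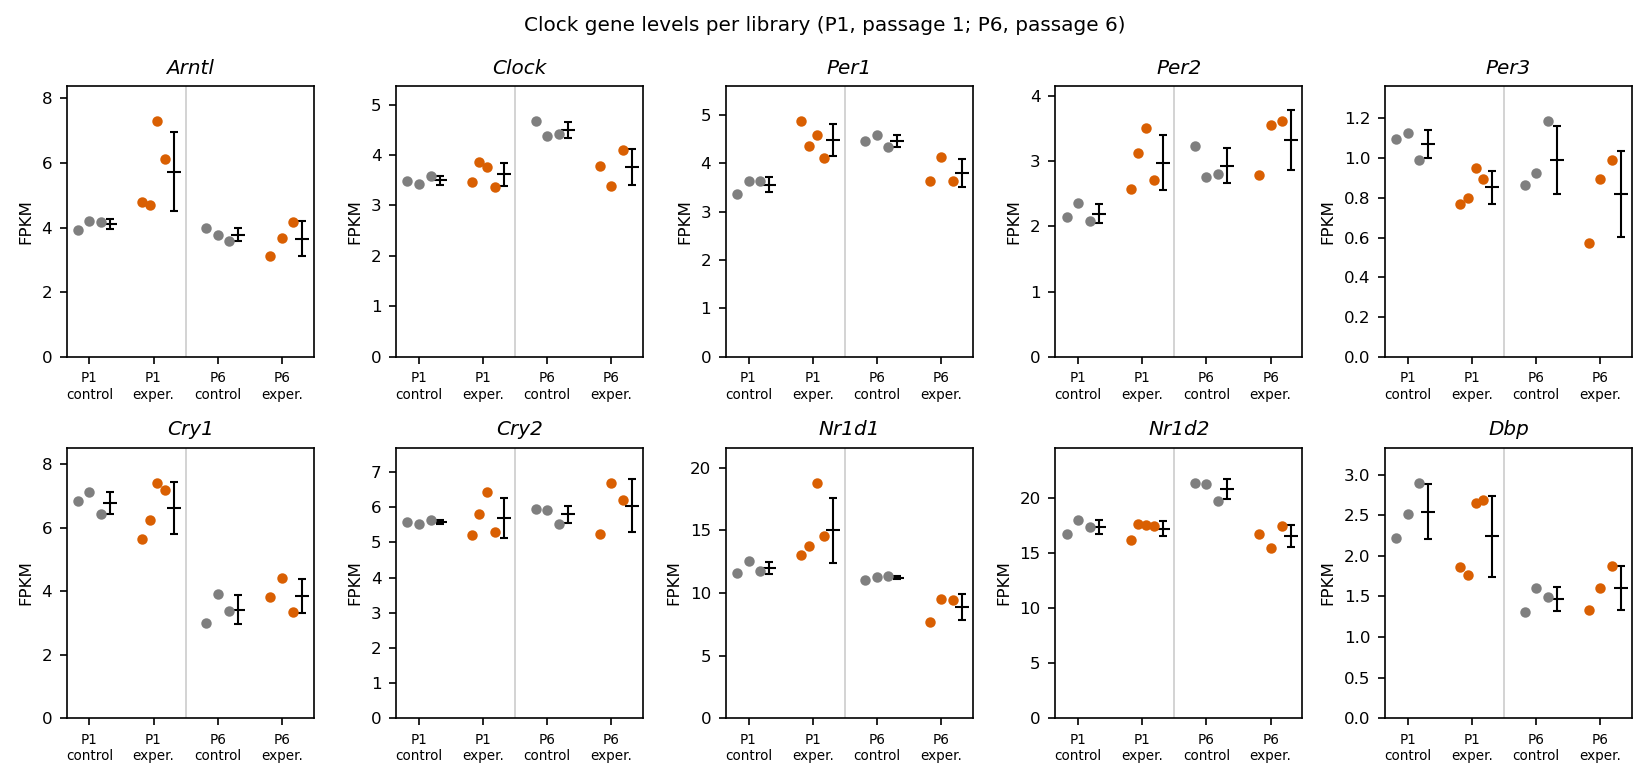
FPKM of the 10 clock genes (vertical axes, each from 0) in the 3 control (grey) and 4 or 3 experimental (orange) libraries of passages 1 and 6, with mean ± SD beside the points. Per1, Per2, Arntl and Nr1d1 lie above the controls at passage 1, and Per1, Clock, Nr1d1 and Nr1d2 lie below them at passage 6.

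The first comparison asks how the clock genes of surviving cells differed from those of controls at passage 1. The period genes Per1 and Per2, which encode the inhibitory PER proteins, were higher in experimental cells, and no clock gene was called lower. A gene is called where its adjusted p is under 0.05 (limma on log2(FPKM + 1), Benjamini-Hochberg over all tested genes). Of the 9 members tested, 2 rose and 0 fell, where 30.4% of all 12469 genes were called, 11.5% as higher and 18.9% as lower. Groups did not overlap for 4 members that were higher in experimental libraries, Arntl, Per1, Per2 and Nr1d1, a pattern of 15.8% of all genes, and for Per3, which was lower, as were 26.9% of all genes. The members' median log2 change was 0.04, against -0.05 over all tested genes. The split of all calls moved with scaling, since 37.8% of them were higher as deposited, against 48.8% with equal FPKM totals, 50.2% with quantile normalization and 55.5% with median-of-ratios scaling.

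Per1 measured 3.37, 3.64 and 3.64 FPKM across the controls, set against 4.86, 4.35, 4.59 and 4.1 FPKM across the experimental libraries. The groups did not overlap, and experimental library 1 was highest. The gene (ENSMUSG00000020893, chromosome 11, 69095217 to 69109960, plus strand, GRCm38) had a log2 change of 0.27 ± 0.06 (SE), a 1.2-fold rise, with adjusted p = 0.0169 (limma). Per2 measured 2.14, 2.35 and 2.08 FPKM across the controls, set against 2.57, 3.12, 3.5 and 2.71 FPKM across the experimental libraries, again without overlap, with library 3 highest. This gene (ENSMUSG00000055866, chromosome 1, 91415982 to 91459324, minus strand) rose 1.24-fold, by 0.31 ± 0.09 on the log2 scale, with adjusted p = 0.0347 (limma). Without control 1, 2 or 3 neither gene was called, at adjusted p = 0.0757, 0.0526 and 0.053 for Per1 and 0.108, 0.0696 and 0.116 for Per2 (limma), although the log2 changes stayed between 0.24 and 0.35. Per2 was also not called without experimental library 2 (adjusted p = 0.0621), and neither was called when only the libraries rich in cartilage transcripts were kept (controls 2 and 3, experimental libraries 1 to 3; adjusted p = 0.0846 and 0.138).

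The third period gene, Per3, was the only member whose experimental libraries all lay below the controls at passage 1. It measured 1.1, 1.13 and 0.992 FPKM across the controls, set against 0.767, 0.8, 0.949 and 0.893 FPKM across the experimental libraries, opposite in direction to Per1 and Per2. Fewer than 3 libraries reached 1 FPKM, so Per3 was not tested. With no filter on low values it had a log2 change of -0.16 and adjusted p = 0.228 (limma). In the GENCODE annotation the whole of Per3 (chromosome 4, 151003652 to 151044665, minus strand) lies inside Camta1 on the same strand, a gene at 0.427 to 0.896 FPKM, and how shared reads were assigned is not stated.

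Arntl and Nr1d1, an activator gene and the gene of its own repressor, were both higher in every experimental library at passage 1 than in any control, but with too wide a spread to pass the test. Arntl (ENSMUSG00000055116, chromosome 7, 113207465 to 113314126, plus strand) measured 3.93, 4.21 and 4.19 FPKM across the controls, set against 4.8, 4.69, 7.29 and 6.12 FPKM across the experimental libraries. Libraries 3 and 4 stood well above libraries 1 and 2, and they also had the lowest colon marker sums of the group, 14 and 102 FPKM, whose part in the result was not tested. Its log2 change of 0.38 ± 0.13 (SE; 95% interval 0.08 to 0.68) had adjusted p = 0.0569 (limma). The call was made with median-of-ratios scaling (adjusted p = 0.0428), quantile normalization (0.0317), array weights (0.0115), 1 fit over both passages (0.0274), and without experimental library 1 or 2 (0.0423 and 0.0298).

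Nr1d1 (ENSMUSG00000020889, chromosome 11, 98767932 to 98775333, minus strand) was at 11.6, 12.5 and 11.8 FPKM in controls. The experimental libraries were at 13, 13.7, 18.8 and 14.5 FPKM, with library 3 the highest by a wide margin. The log2 change of 0.29 ± 0.11 (SE; 95% interval 0.03 to 0.55) had adjusted p = 0.0816 (limma). Without experimental library 3 it was 0.19, but called at adjusted p = 0.0395 (limma), with the other 3 libraries between 13 and 14.5 FPKM. Nr1d1 was called with array weights (0.0284) and in 1 fit over both passages (0.0471) as well. Nr1d1 shares 1075 bases with Thra, a thyroid hormone receptor gene on the opposite strand. Thra was at 12.7 to 13.1 FPKM among controls, with 15.5, 14.8, 19.5 and 16.7 FPKM among the experimental libraries 1 to 4, so it too was highest in library 3. The libraries were stranded, per the labels, but whether counting used the strand is not stated, and the part of shared reads in the Nr1d1 values was not tested.

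The other 5 members had overlapping groups at passage 1. Nr1d2, the second REV-ERB gene (chromosome 14, 18204054 to 18239127, minus strand), measured 16.7, 18 and 17.4 FPKM across the controls, set against 16.2, 17.6, 17.6 and 17.5 FPKM across the experimental libraries, with a log2 change of -0.01 (95% interval -0.12 to 0.10). Nr1d1 came to 0.678 to 0.696 of Nr1d2 in controls and to 0.778 to 1.07 of it in experimental libraries, a ratio that was not tested. At passage 6 this ratio overlapped, at 0.517 to 0.574 in controls and 0.458 to 0.616 in experimental libraries. Clock (chromosome 5, 76209868 to 76304792, minus strand), the partner of Arntl, had a log2 change of 0.04 (95% interval -0.10 to 0.17) and went from 3.5 ± 0.0883 to 3.61 ± 0.236 FPKM (SD, n = 3 and 4). An expressed pseudogene on the same strand, Ube2n-ps1, at 4.77 to 11.6 FPKM, lies within it.

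The cryptochrome genes did not pass the test at passage 1. Cry1 (chromosome 10, 85131700 to 85185064, minus strand) was at 6.43 to 7.12 FPKM among controls, with 5.64, 6.26, 7.42 and 7.21 FPKM among the experimental libraries, so that libraries 1 and 2 lay below the controls and libraries 3 and 4 above them. Its log2 change was -0.04 (95% interval -0.24 to 0.17). Cry2 (chromosome 2, 92403646 to 92434043, minus strand) had a log2 change of 0.02 (95% interval -0.14 to 0.18). Dbp (chromosome 7, 45705088 to 45710203, plus strand), an E-box-driven output gene, measured 2.23, 2.51 and 2.9 FPKM across the controls, set against 1.87, 1.76, 2.65 and 2.69 FPKM across the experimental libraries. Here too libraries 1 and 2 were the low ones. Its log2 change was -0.14 (95% interval -0.43 to 0.16). Dbp shares 737 bases with Sphk2 on the opposite strand, a gene at 4.32 to 7.63 FPKM, and the part of shared reads was not tested.

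In the passage 1 comparison restricted to libraries rich in cartilage transcripts, the log2 change was 0.32 for Arntl, 0.28 for Nr1d1, 0.27 for Per1 and 0.33 for Per2. It was 0.06 for Clock, -0.07 for Cry1, 0.05 for Cry2 and -0.04 for Nr1d2. Dbp had -0.27, against -0.14 in all libraries.

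**Figure D3:**
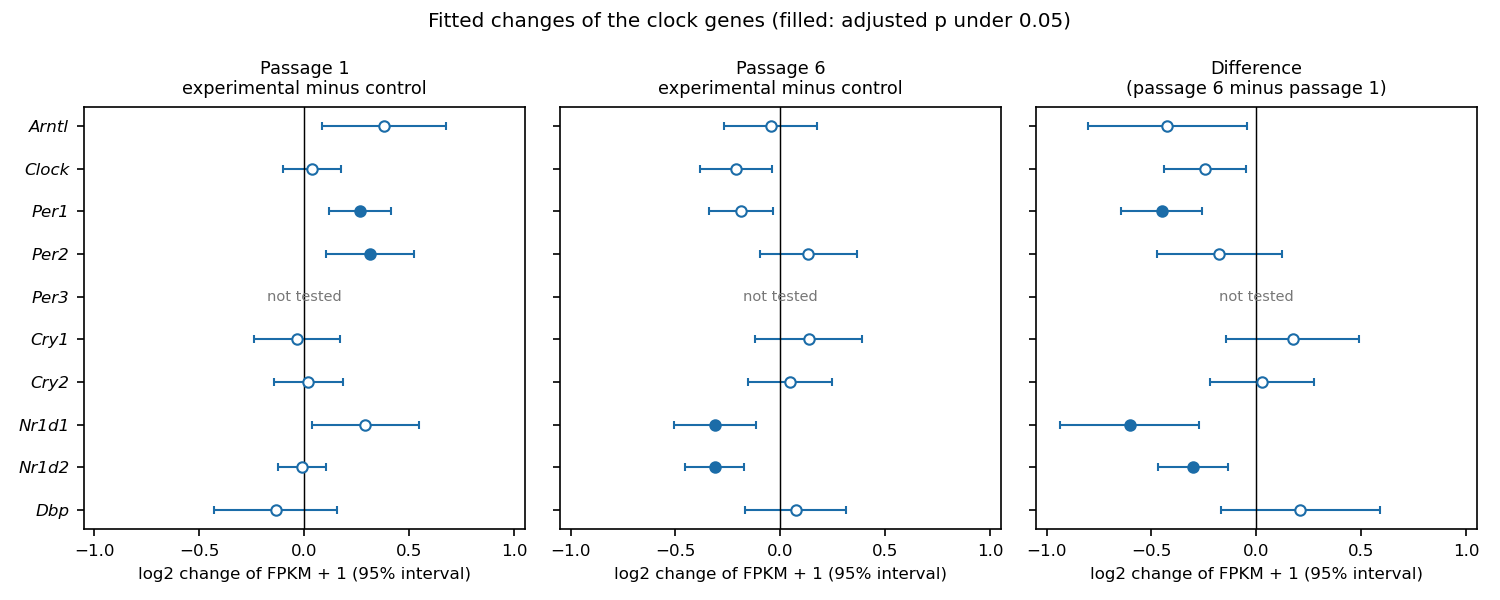
Fitted log2 change of FPKM + 1 (points) with 95% intervals (bars) for the clock genes in each passage, and the difference of the later from the earlier change. Filled points passed adjusted p under 0.05, and Per3 was not tested.

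The second comparison asks whether clock genes differed at passage 6, when the cells looked normal. Both REV-ERB genes were lower in experimental cells, and no member was called higher. Of the 9 members tested, 0 rose and 2 fell, where 19.8% of all 12458 genes were called, 8.98% as higher and 10.8% as lower. With median-of-ratios scaling 57.5% of all calls were higher, against 45.5% as deposited. The members' median log2 change was -0.05, and that of all genes -0.04. Groups did not overlap for 4 members, Clock, Per1, Nr1d1 and Nr1d2, all lower in experimental libraries, a pattern that 24.3% of all genes showed in that direction.

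Nr1d2 measured 21.4, 21.3 and 19.8 FPKM across the passage 6 controls, set against 16.7, 15.5 and 17.5 FPKM across the experimental libraries. Every experimental library lay below every control, and the gene fell by 0.31 on the log2 scale (SE 0.06), a 1.24-fold change, with adjusted p = 0.0147 (limma). Nr1d1 measured 11.1, 11.3 and 11.4 FPKM across the controls, set against 7.66, 9.55 and 9.46 FPKM across the experimental libraries. Experimental library 1 was the lowest. Nr1d1 also fell by 0.31 on the log2 scale (SE 0.08), with adjusted p = 0.0391 (limma). Thra, its overlapping neighbour, was at 8.58 to 8.77 FPKM among controls, with 7.71, 14.1 and 14 FPKM among the experimental libraries 1 to 3. In library 1 it lay below every control, as Nr1d1 did. It lay above them only in libraries 2 and 3, those with liver and brain transcripts.

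All 3 experimental libraries also had lower cartilage and colon marker sums than any control of that passage, whose part in these falls was not tested. Experimental library 1, where the liver markers summed to 0.245 FPKM, was itself below every control for both genes. Without experimental libraries 2 and 3 the log2 change was -0.50 for Nr1d1, over 1.5 times the size in all libraries, and -0.30 for Nr1d2 (limma, adjusted p = 0.0057 and 0.0268, the lone library assumed to vary like the controls). The call of Nr1d1 ended with equal FPKM totals (adjusted p = 0.0879), median-of-ratios scaling (0.0554), quantile normalization (0.0541), no filter (0.114) and 1 fit over both passages (0.0586). It also ended without control 1, 2 or 3 (0.108, 0.122 and 0.122) or experimental library 3 (0.0564), and that of Nr1d2 ended without control 1 or 2 (0.0695 and 0.0716).

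Per1 and Clock lay below the controls at passage 6 without passing the test. Per1 measured 4.45, 4.58 and 4.33 FPKM across the controls, set against 3.64, 4.12 and 3.63 FPKM across the experimental libraries, the reverse of its order at passage 1. The log2 change was -0.19 ± 0.06 (SE; 95% interval -0.34 to -0.03; adjusted p = 0.0852, limma). Clock measured 4.67, 4.38 and 4.42 FPKM across the controls, set against 3.79, 3.38 and 4.1 FPKM across the experimental libraries. Its log2 change of -0.21 ± 0.07 (95% interval -0.38 to -0.04) had adjusted p = 0.084 (limma), and 0.0371 in 1 fit over both passages. Without experimental libraries 2 and 3 the changes were -0.23 for Per1 and -0.20 for Clock (adjusted p = 0.0683 and 0.105, limma).

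The remaining members overlapped between the groups at passage 6. Per2 measured 3.23, 2.75 and 2.79 FPKM across the controls, set against 2.79, 3.55 and 3.61 FPKM across the experimental libraries, where only libraries 2 and 3, those with liver and brain transcripts, were above the controls. Its log2 change was 0.13 (95% interval -0.10 to 0.36), and -0.05 without these libraries. Arntl measured 4, 3.78 and 3.57 FPKM across the controls, set against 3.11, 3.67 and 4.18 FPKM across the experimental libraries, with a log2 change of -0.05 (95% interval -0.27 to 0.18). Without experimental libraries 2 and 3 the Arntl change was -0.22, over 4 times as large and not called (adjusted p = 0.119, limma). Cry1, Cry2 and Dbp had log2 changes of 0.14, 0.05 and 0.07, with intervals that included 0. Of these, Cry2 and Dbp had negative changes without experimental libraries 2 and 3, at -0.13 and -0.08, and Cry1 had 0.13. Per3, untested, measured 0.866, 0.923 and 1.18 FPKM across the controls, set against 0.574, 0.897 and 0.989 FPKM across the experimental libraries.

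The third comparison asks whether the change in experimental cells itself differed between the passages. It did for Per1, Nr1d1 and Nr1d2, whose change at passage 6 was more negative than at passage 1. Of 9 members tested over the 13 libraries, 0 were called for a higher and 3 for a lower change at passage 6. Of 13019 genes, 14.7% were called (8.46% higher, 6.27% lower). The median difference was -0.25 for the members and 0.02 for all genes. Both passages' changes enter this contrast, so it shares its libraries with the comparisons above.

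For Per1 the difference was -0.45 ± 0.09 (SE, log2), from 0.27 at passage 1 to -0.19 at passage 6, with adjusted p = 0.0065 (limma). The call held in all 23 alternatives, with adjusted p up to 0.0385. For Nr1d1 the difference was -0.60 ± 0.15, from 0.29 to -0.31, with adjusted p = 0.0211, and it was called in 20 of 24 alternatives. Among others, it was not called with no filter (0.0651) or without passage 1 control 1 or 3 (0.0518 and 0.0504). For Nr1d2 the difference was -0.30 ± 0.08, from -0.01 to -0.31, with adjusted p = 0.0211 and 18 of 24 alternatives called. That call ended without passage 1 control 1 or 3 (0.0599 and 0.0504), passage 6 control 1 or 2 (0.0586 and 0.0564), or passage 6 experimental libraries 2 and 3 together (0.0553). The change of Arntl differed by -0.43 ± 0.17 (adjusted p = 0.12) and that of Clock by -0.25 ± 0.09 (adjusted p = 0.0869), neither called, and Clock was called without passage 6 experimental library 3 (0.0457). For Per2, Cry1, Cry2 and Dbp the 95% intervals of the difference included 0, from -0.48 to 0.12 for Per2 to -0.17 to 0.59 for Dbp.

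Among other factors of the loop, 1 gene fell at passage 1. Of 10 further loop genes, 7 were tested at passage 1, of which 0 rose and 1 fell (30.4% of all genes were called), and 6 at passage 6 (19.8% of all genes), with 0 called by limma at adjusted p under 0.05 and 2 (Bhlhe40 and Timeless) at an unadjusted p under 0.05. The gene that fell was Cipc, which encodes an inhibitor of CLOCK. It measured 9.28, 8.03 and 8.24 FPKM across the passage 1 controls, set against 6.46, 5.79, 5.44 and 5.56 FPKM across the experimental libraries, 1.4-fold lower on the log2(FPKM + 1) scale (adjusted p = 0.00248, limma), and it was called in every alternative run for passage 1. Npas2, a relative of Clock, and the receptor genes Rora and Rorb, which oppose the REV-ERBs at the RORE, reached at most 0.254 FPKM in any library.

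Bhlhe40, an E-box-binding repressor that hypoxia also induces, showed the widest split among the experimental libraries of passage 1, and was named after its values were seen. It was at 11 to 11.2 FPKM among controls, with 12.7, 10.1, 25.4 and 23.1 FPKM among the experimental libraries 1 to 4. Libraries 3 and 4 are also those where Arntl was highest. The log2 change of 0.54 ± 0.29 (SE) had adjusted p = 0.184 (limma), and the gene was called with array weights (0.0381) and without experimental library 2 (0.0394). Among the libraries rich in cartilage transcripts the change was 0.39 (adjusted p = 0.497, limma). At passage 6 Bhlhe40 was at 6.8 ± 0.165 and 8.27 ± 0.91 FPKM (SD, n = 3 and 3; adjusted p = 0.0669, limma), and it was called there with median-of-ratios scaling (0.0492), array weights (0.0204) and without experimental library 1 (0.011). Without experimental libraries 2 and 3 its change there was 0.11, against 0.24 with them (adjusted p = 0.24, limma). The replication-linked gene Timeless was at 10.5 ± 0.377 and 9.55 ± 0.268 FPKM (SD, n = 3 and 3) at passage 6, not called.

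Among the PAR-bZIP relatives of Dbp and their D-box competitor, 1 gene fell at each passage. Hlf, a D-box activator gene, fell at passage 1 from 4.98 ± 0.0858 to 3.95 ± 0.371 FPKM (SD, n = 3 and 4), by 0.28 on the log2 scale (adjusted p = 0.0196, limma). That call ended without control 1, 2 or 3 (0.0712, 0.0604 and 0.0743) and among the libraries with cartilage transcripts (0.115). Nfil3, the gene of the D-box repressor E4BP4, fell at passage 6, from 13.6, 14.6 and 13.8 FPKM in controls to 10.4, 10.8 and 10.3 FPKM in experimental libraries (1.3-fold, adjusted p = 0.00472, limma). It was not called in 1 fit over both passages (0.107). Without experimental libraries 2 and 3 the log2 change of Nfil3 was -0.40. Of these 3 genes with Tef, 0 rose and 1 fell at each passage, where 18.9% and 10.8% of all genes were called lower. The change of Nfil3 was not shown to differ between the passages (-0.26, 95% interval -0.75 to 0.22, adjusted p = 0.463, limma).

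Enzymes that mark clock proteins changed in few cases at passage 1. Of 12 genes of kinases, ligases and related enzymes, 10 were tested there, of which 1 rose and 0 fell, with 11.5% of all genes called higher. The gene that rose was Csnk1e, which encodes casein kinase 1 epsilon, a kinase that phosphorylates PER. It went from 19.6 ± 0.422 to 22.8 ± 0.914 FPKM (SD, n = 3 and 4; adjusted p = 0.0144, limma). Omitting control 1, 2 or 3 ended that call (0.0518, 0.0546 and 0.0725), as did keeping only the libraries rich in cartilage transcripts (0.119).

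Of 5 clock output genes tested at passage 1, 2 rose and 0 fell, where 11.5% of all genes were called higher. Wee1, a kinase gene that restrains entry into mitosis, rose 1.27-fold, from 14.6 ± 0.565 to 18.8 ± 1.59 FPKM (SD, n = 3 and 4; adjusted p = 0.00903, limma), a call that ended only among the libraries with cartilage transcripts (0.0671). Nampt, the gene of the rate-limiting enzyme of NAD salvage, rose 1.14-fold (adjusted p = 0.0324, limma). That call ended without control 1, 2 or 3 (0.119, 0.101 and 0.0837) or experimental library 3 or 4 (0.0501 and 0.0722). Keeping only the libraries rich in cartilage transcripts also ended it (0.226). At passage 6, 0 of 5 output genes were called by limma at adjusted p under 0.05, where 19.8% of all genes were, and 1 was under 0.05 unadjusted. The 2 with the highest FPKM there were the tetraspanin gene Tspan4, at 57.8 ± 0.789 and 56.8 ± 2.43 FPKM, and the cell cycle inhibitor gene Cdkn1a, at 16.6 ± 0.448 and 16.4 ± 0.709 FPKM (SD, n = 3 and 3).

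Genes on the input side of the clock, which carry cyclic AMP, glucocorticoid and growth signals, were called at both passages. Of 12 tested at passage 1, 3 rose and 2 fell, where 30.4% of all genes were called, and of 11 tested at passage 6, 0 rose and 2 fell, where 19.8% were. Sgk1, a glucocorticoid- and serum-induced kinase gene, measured 18.2, 19 and 17.7 FPKM across the passage 1 controls, set against 31.8, 29.3, 33.6 and 31.8 FPKM across the experimental libraries, a 1.69-fold rise (adjusted p = 0.000113, limma). Sik1, a cyclic AMP-induced kinase gene, rose 1.37-fold (adjusted p = 0.00339) and Crtc2, the gene of a CREB coactivator, 1.2-fold (adjusted p = 0.017). Crem and Crtc1, other genes of CREB signalling, fell by 0.32 and 0.22 on the log2 scale (adjusted p = 0.0314 and 0.0331, limma). Sgk1 and Sik1 were called in every alternative run for passage 1. Crtc2 was not called without control 1 or 2 (0.0717 and 0.0546), Crem without any 1 library except experimental library 3 (0.0527 to 0.115), and Crtc1 without any 1 control (0.0963 to 0.109) or experimental library 1 or 4 (0.052 and 0.0729). Crem and Crtc1 were not called under any of the 3 other scalings either (adjusted p 0.0527 to 0.114). Among the libraries rich in cartilage transcripts, Crtc2, Crem and Crtc1 were not called (adjusted p = 0.119, 0.161 and 0.204, limma).

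At passage 6 the input genes that fell were Dusp1, a glucocorticoid-induced phosphatase gene, and Klf10, a zinc finger gene under clock and growth factor control. Dusp1 went from 13.7 ± 0.118 to 9.53 ± 0.695 FPKM and Klf10 from 13.2 ± 0.313 to 9.45 ± 1.12 FPKM (SD, n = 3 and 3; adjusted p = 0.0039 and 0.0118, limma). Without experimental libraries 2 and 3 both were called as well, with log2 changes of -0.49 and -0.58. Klf10 was not called without control 1, 2 or 3 (0.0509, 0.0511 and 0.0544). Of the 12 input genes, 6 were called for a lower change at passage 6 than at passage 1 and 0 for a higher one. Among all 13019 genes, 6.27% and 8.46% were so called. By sign alone, the difference was negative for 7 input genes and positive for 5. Sgk1 was at -0.83 ± 0.10 (SE) and Klf10 at -0.78 ± 0.15 (adjusted p = 0.000665 and 0.00579, limma).

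**Figure D4:**
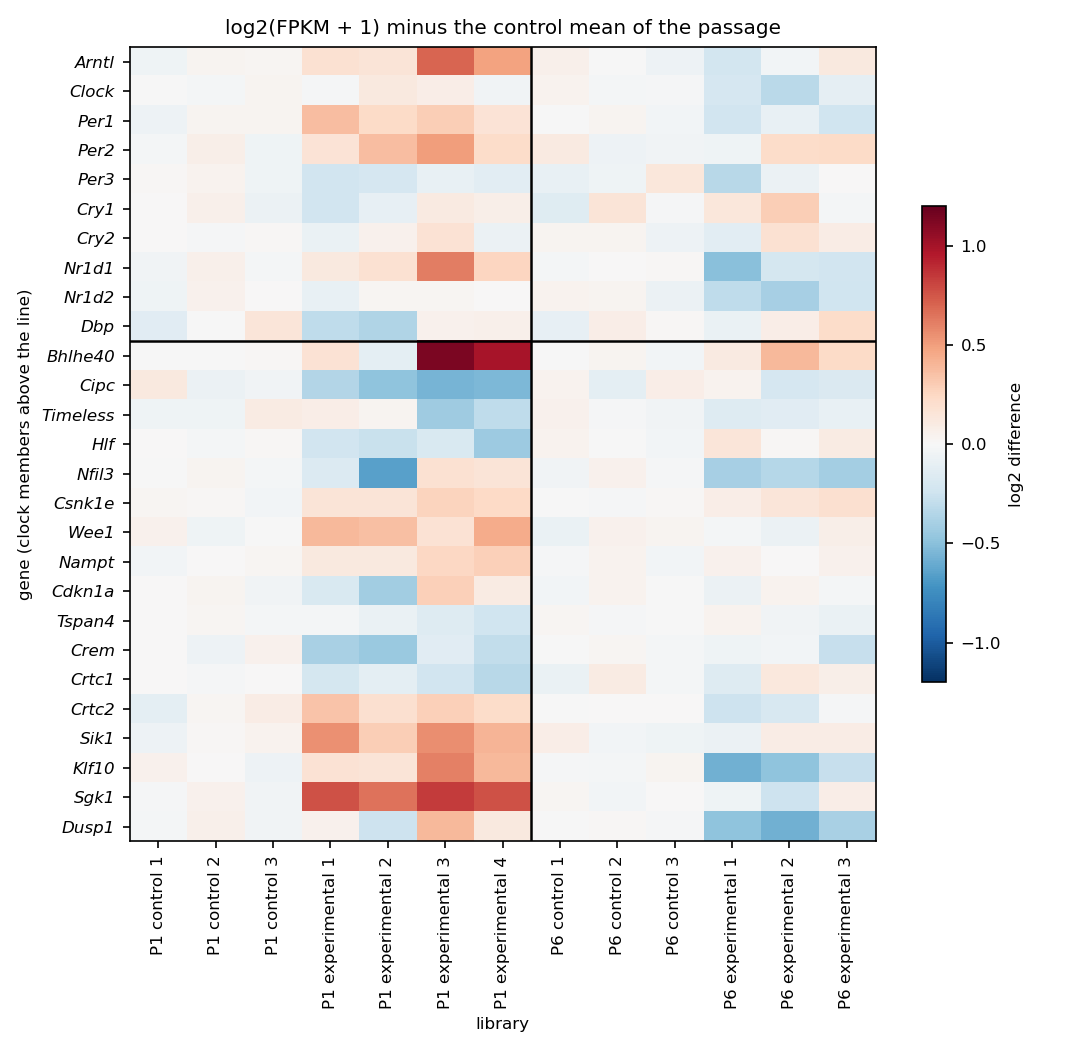
Log2(FPKM + 1) of each clock gene (above the horizontal line) and named related gene (below it) in every library (columns), minus the control mean of its passage, with red higher and blue lower. Arntl and Bhlhe40 are highest in passage 1 experimental libraries 3 and 4, and Nr1d1, Nr1d2, Nfil3, Klf10 and Dusp1 are low in all 3 passage 6 experimental libraries.

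The genes whose profile over the 13 libraries was most like that of each called member were sought among 7530 other genes with a mean of at least 5 FPKM. Likeness was Pearson's r of log2(FPKM + 1) minus the control mean of the passage. The points share their controls within a passage, and with so many genes the highest r is large by selection. Per1 was most like Rab12, Cxxc5 and Mnt (r = 0.952, 0.951 and 0.951). Per2 was most like Prrc2a, Ptprf and Zswim8 (r = 0.926, 0.925 and 0.924). Nr1d1 was most like Baz2a, Adar and Kansl1 (r = 0.974, 0.973 and 0.97), and Nr1d2 most like Rbm15, Nxf1 and Ppp1r12a (r = 0.977, 0.957 and 0.943).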

How the data were processed

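Poly(A) RNA of 13 Neuro2a libraries was analysed from the authors' 2 deposited tables of FPKM. The submitters' processing notes name mm10 and, with neither version nor role, HISAT2, StringTie, cutadapt, edgeR and DESeq2. The depth of these libraries is unknown from FPKM, and precision rests on the spread between them. Left out was 1 gene with an empty cell, and 34731 of 34857 identifiers matched a GENCODE M21 symbol (GRCm38, also called mm10).

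In R 4.3.3, limma 3.58.1 with a trend on mean level was fitted to log2(FPKM + 1), once per passage and once over all 13 libraries for the difference. A gene was tested where 3 or more libraries of a passage reached 1 FPKM, two-sided, at a Benjamini-Hochberg threshold of 0.05. Fold changes include the added 1 FPKM and so understate the change of low genes. The fit was tested on simulated data. Alternatives covered pseudocount, filter, scaling, weights, blocking and left-out libraries. Tables and figures used Python 3.11.15, pandas 2.3.3 and matplotlib 3.10.9.

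The members and lists were chosen with earlier results of these data known. All 10 members were named, with up to 4 called genes per related list, direction and passage (if none was called, the 2 most abundant). For each called member the 3 most alike genes were named. The results of 2 related genes are not reported here.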

Additional observations from a re-analysis of the deposited data

Results flagged for a closer look

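In the passage 1 experimental group of 4 libraries, Nr1d2 had a low library. Library 1 was at 16.2 FPKM, and the other 3 lay close together at 17.5 to 17.6 FPKM. The gap was 0.889 of the group's range. This was 1 of 28 genes examined in that group, and chance flags about 1 in 20.

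The change in experimental cells differed between the passages for 3 clock genes, by a contrast over all 13 libraries (limma, Benjamini-Hochberg). The difference, passage 6 minus passage 1, was -0.45 for Per1, -0.60 for Nr1d1 and -0.30 for Nr1d2 on the log2 scale. Per1 was higher in 4 of 4 experimental libraries than in any control at passage 1 and lower in 3 of 3 at passage 6, and so was Nr1d1.

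Among the related genes named in the report the difference was positive for Cipc (0.37) and Hlf (0.36). Outside these, Tef and Nr3c1, named here after their values were seen, had -0.35 and -0.37 (adjusted p = 0.022 and 0.0267, limma). Of the genes named in the report, it was negative for Wee1 (-0.35), Crtc2 (-0.41), Sik1 (-0.42), Klf10 (-0.78), Sgk1 (-0.83) and Dusp1 (-0.56). The adjusted p of these 8 genes lay between 0.000665 for Sgk1 and 0.0484 for Cipc (limma). All 8 were named because they were called at passage 1 or 6 in these same libraries, which favours a called difference. Of all 13019 genes, 14.7% were called. Klf10 and Sgk1 were called in every alternative run, and Crtc2 in every one that left out a library or changed the scaling. Sik1 was not called without control 1 of passage 1 (0.0517) or of passage 6 (0.0534). Hlf was not called without passage 1 control 1 or 3 or passage 6 control 2 or 3 (0.0521 to 0.0572). Wee1 was not called without passage 1 control 2 or 3 or experimental library 4, or passage 6 control 2 or 3 or experimental library 2 (0.0553 to 0.0787). Dusp1 was not called without any 1 control, passage 1 experimental library 4 or passage 6 experimental library 2 (0.0589 to 0.0835), nor Cipc without any 1 library except passage 1 experimental library 1 (0.0502 to 0.119). Cipc was also not called with median-of-ratios scaling (0.0711), quantile normalization (0.0559), a pseudocount of 0.1 (0.0535) or limma without trend (0.0533). With no filter Cipc, Wee1 and Dusp1 were not called (adjusted p = 0.118, 0.0719 and 0.105, limma).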

How the results depend on the processing

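Of the members, 2 were called at passage 1, against 1 with no filter, 0 with a filter of 5 FPKM in 3 libraries (which left 4 to test), 4 with array weights, 4 in 1 fit over both passages and 0 among the libraries rich in cartilage transcripts. At passage 6, 2 were called, against 1 with no filter, 1 with equal FPKM totals, 1 with median-of-ratios scaling and 1 with quantile normalization. Leaving out 1 library gave 0 to 3 members at passage 1, 0 to 2 at passage 6 and 1 to 4, against 3, for the difference.

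Libraries with the same number did not deviate together beyond the range of other pairs. Their correlations ran from -0.192 to 0.239 in the early passage and from -0.066 to 0.033 in the late one. Those of pairs with different numbers ran from -0.354 to 0.263 and from -0.092 to 0.106. These values show no pairing by number, but 3 same-numbered pairs per passage are too few to exclude one. With the replicate block, which cannot use passage 1 experimental library 4, the members called numbered 0 in the early passage, 1 in the late passage and 1 for the difference. That fit called 1813, 1438 and 728 of all genes in these comparisons, against 3792, 2462 and 1918 without it. Among the libraries rich in cartilage transcripts 976 genes were called. With no filter 1286 were called at passage 6 and 1185 for the difference, and array weights gave 3192 for the difference. Leaving out 1 library gave 2053 to 4069, 670 to 4257 and 1160 to 2547 genes.

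No called member changed direction in any alternative run, but uncalled changes near 0 did. With equal totals, median-of-ratios and quantile scaling, the passage 1 log2 change of Cry1 was 0.00232, 0.0234 and 0.0123, and that of Nr1d2 0.0304, 0.0534 and 0.0199. Array weights gave -0.0175 for Cry2 at passage 1 and 0.0188 for Arntl at passage 6, where quantile normalization gave 0.00682. Leaving out 1 library gave -0.0856 to 0.0285 for Cry1, -0.0328 to 0.0537 for Cry2 and -0.0358 to 0.0160 for Nr1d2 at passage 1. At passage 6 it gave -0.127 to 0.0403 for Arntl, -0.0204 to 0.132 for Cry2, -0.00221 to 0.149 for Dbp, -0.0481 to 0.0107 for Cdkn1a and -0.0582 to 0.00110 for Tspan4. Without experimental libraries 2 and 3 Per2 had -0.0487, Cry2 -0.126, Dbp -0.0817 and Tspan4 0.0402. Equal totals and median-of-ratios scaling gave 0.0115 and 0.0200 for Cdkn1a and 0.00509 and 0.0140 for Tspan4. The difference for Cry2 was -0.00142 with the replicate block, -0.146 without passage 6 experimental libraries 2 and 3, and -0.0396 to 0.113 without 1 library. The cause was not tested. No scaling moved the median of all genes by over 0.1 (log2).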

Other observations

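The ratio of Nr1d1 to Arntl, the repressor gene over the gene it represses, came to 2.96, 2.98 and 2.81 in passage 1 controls and to 2.72, 2.92, 2.58 and 2.37 in experimental libraries, so the groups overlapped although both genes were higher in every experimental library. At passage 6 it came to 2.77, 2.99 and 3.18 in controls and to 2.46, 2.61 and 2.26 in experimental libraries, without overlap. The ratio of Per1 to Per2 overlapped at passage 1, at 1.57, 1.55 and 1.75 in controls and 1.89, 1.39, 1.31 and 1.51 in experimental libraries. At passage 6 it came to 1.38, 1.66 and 1.55 in controls and to 1.3, 1.16 and 1.01 in experimental libraries, all below the controls, and libraries 2 and 3, with liver and brain transcripts, were lowest. These ratios were chosen after the values were seen and were not tested.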
